A study of Homo sapiens with 72 samples.

Results

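The metallothionein and zinc response genes described here were 8 genes picked by name: the metallothioneins MT1E, MT1F, MT1G, MT1M, MT1X and MT2A, the transcription factor MTF1, and the zinc exporter SLC30A1. They were found by matching Ensembl identifiers to symbols, and all 8 were among the 60371 genes listed for each well. The wells came from a bulk RNA-seq experiment on U2OS, an established human osteosarcoma line, treated for 12 h. Each of 6 compounds was given at 3 doses (100, 1000 and 10000 nM) in 3 wells a dose, and 18 wells received the solvent DMSO, which made 72 wells in 19 groups. The compounds were homoharringtonine (an inhibitor of translation elongation), triptolide (an inhibitor of transcription initiation that acts on the factor TFIIH), nilotinib (a BCR-ABL kinase inhibitor), MK-2206 (an AKT kinase inhibitor), pyrazolanthrone (a JNK kinase inhibitor) and miglitol (an alpha-glucosidase inhibitor). All wells held the same unmodified line in medium with 10% serum, and no group received added zinc or another metal by its labels. The question put to the data was how each compound and dose changed the RNA level of these genes against DMSO.

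Metallothioneins are small cysteine-rich proteins that bind zinc, copper and cadmium, and their genes are among the most strongly metal-inducible in human cells. MTF1 senses free zinc through its zinc fingers, moves to the nucleus and binds metal response elements in the promoters of the metallothionein genes and of SLC30A1. SLC30A1, also called ZnT1, carries zinc out of the cell across the plasma membrane, so the pathway couples zinc binding to zinc export, and metallothionein genes also respond to glucocorticoids, oxidative stress and other signals.

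In the GRCh38 annotation the 6 metallothioneins lay in 1 cluster on chromosome 16. MT2A (ENSG00000125148) was at chr16:56608584-56609497, MT1E (ENSG00000169715) at chr16:56625475-56627112, MT1M (ENSG00000205364) at chr16:56632659-56633981, MT1F (ENSG00000198417) at chr16:56657731-56660698 and MT1X (ENSG00000187193) at chr16:56682470-56684196, all on the plus strand. MT1G (ENSG00000125144) lay at chr16:56666730-56668065 on the minus strand. Their spliced transcripts were short, from 398 bases for MT1M to 746 bases for MT1E. MTF1 (ENSG00000188786, chr1:37809574-37859592, minus strand) had 11 exons and a transcript of 7937 bases, and SLC30A1 (ENSG00000170385, chr1:211571568-211579161, minus strand) had 2 exons and 5893 bases.

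The 250 bases upstream of the start of MT2A, MT1X and SLC30A1 are printed because the pathway acts through metal response elements in them. They are RefSeq sequences of GRCh38.p14, 5′ to 3′ on the strand of each gene, at chr16:56608334-56608583 (plus) for MT2A, chr16:56682220-56682469 (plus) for MT1X and chr1:211579162-211579411 (minus) for SLC30A1, and capitals mark each match to the core TGCACNC or TGCGCNC on either strand.
MT2A: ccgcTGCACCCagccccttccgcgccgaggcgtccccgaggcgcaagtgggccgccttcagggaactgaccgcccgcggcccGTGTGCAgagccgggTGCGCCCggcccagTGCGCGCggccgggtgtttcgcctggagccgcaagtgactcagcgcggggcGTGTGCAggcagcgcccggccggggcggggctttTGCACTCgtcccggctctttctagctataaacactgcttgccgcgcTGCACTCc
MT1X: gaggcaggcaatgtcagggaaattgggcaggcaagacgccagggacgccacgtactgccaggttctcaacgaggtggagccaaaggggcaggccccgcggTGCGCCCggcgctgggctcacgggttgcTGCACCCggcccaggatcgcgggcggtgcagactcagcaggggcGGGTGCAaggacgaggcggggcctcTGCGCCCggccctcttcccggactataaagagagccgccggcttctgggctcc
SLC30A1: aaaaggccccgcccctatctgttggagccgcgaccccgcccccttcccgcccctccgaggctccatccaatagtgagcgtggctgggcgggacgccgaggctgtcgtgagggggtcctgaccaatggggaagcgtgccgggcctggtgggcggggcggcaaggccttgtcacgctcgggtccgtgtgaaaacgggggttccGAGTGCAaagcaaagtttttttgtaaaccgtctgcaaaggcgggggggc
The MT2A stretch held 7 matches, the MT1X stretch 4 and the SLC30A1 stretch 1, while the MTF1 stretch (chr1:37859593-37859842, minus) held 0. For comparison, 29.6% of 35116 RefSeq promoters of 300 bases (250 upstream and 50 downstream) held at least 1 match, 2.3% held 3 or more and 0.162% held 5 or more. Over that same window of 300 bases MT2A held 8 matches, MT1X 4, SLC30A1 2 and MTF1 0. A match is only a run of these letters, and 4 of the 8 genes had an entry in the sequence table.

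Library depth ran from 70767 to 68296309 expected counts, with a median of 38369495. The 3 libraries under 10000000 were triptolide 100 nM replicate 2, triptolide 1000 nM replicate 1 and DMSO replicate 10. Leaving them out moved no count of called members. Of the mesenchymal and bone lineage markers, VIM averaged 1842 TPM, SPARC 2144 TPM, COL1A1 456 TPM and RUNX2 3.91 TPM in DMSO wells, whereas COL1A2 was near 0 with at most 0.35 TPM in any well. The epithelial markers EPCAM, CDH1 and KRT19 reached at most 6.99 TPM and the leukocyte markers PTPRC and CD3E at most 1.33 TPM. The labels do not say that the wells of a group were separate cultures, so p-values measure the spread between wells only. All comparisons with a solvent control used the same 18 DMSO wells and are not independent of each other. RNA per cell and cell number cannot be told apart in bulk libraries, so every value is relative to the other RNA in its well.

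In DMSO wells MT2A was among the most abundant mRNAs of the line. In TPM, which corrects for transcript length, MT2A stood at 4116 ± 806 TPM (SD, n = 18) and ranked 20 among 19550 protein-coding genes, and MT1E stood at 967 ± 78.9 TPM and ranked 143. MT1X followed with 175 ± 28.0 TPM. Each of these 3 was separated from the next by more than the range of the wells, since MT2A ran from 2314 to 5490 TPM, MT1E from 774 to 1061 and MT1X from 96.4 to 214. SLC30A1 (11.2 ± 3.07 TPM) and MTF1 (8.48 ± 1.40 TPM) overlapped and did not differ beyond their spread. MT1G was at 1.59 ± 1.10 TPM with 1 well at 0. MT1F averaged 0.006 TPM and was at 0 in 17 of 18 wells, and MT1M averaged 0.004 TPM and was at 0 in 16 of 18, so these 2 genes were not detectable at this depth in most wells. Because near-identical copies share reads and RSEM divides such reads by estimate, the split between metallothionein genes is less certain than their sum. Summed over 20 metallothionein genes and pseudogenes, the family took 0.213% ± 0.045 (SD, n = 18) of all counts in DMSO wells, and MT2A, MT1E and MT1X together made up 99.88% or more of it in every well of the series.

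**Figure D1:**
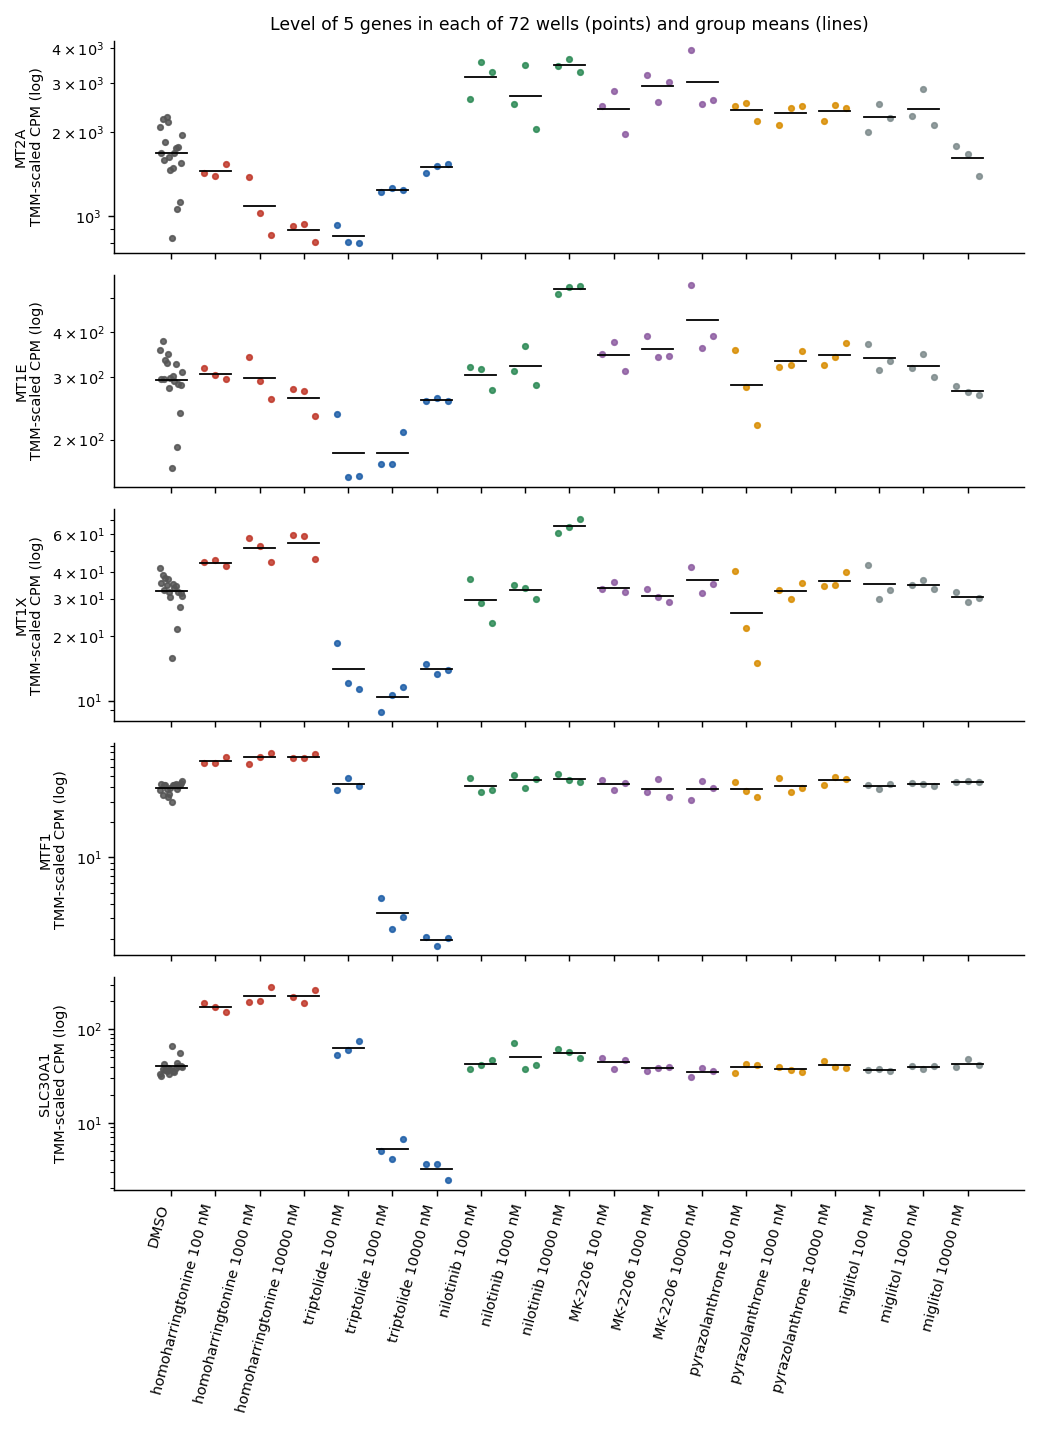
TMM-scaled CPM (log axis) of MT2A, MT1E, MT1X, MTF1 and SLC30A1 in each of the 72 wells by group; points are wells and lines are group means. SLC30A1 and MTF1 lay above every DMSO well in all 9 homoharringtonine wells and below every DMSO well at 1000 and 10000 nM triptolide, whereas the highest MT2A levels were in nilotinib and MK-2206 wells.

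The 3 abundant metallothioneins moved together among the untreated wells. In TMM-scaled CPM (a gene's counts relative to the library total, with edgeR's TMM correction for library make-up, the unit of all levels from here on unless TPM is named), MT2A ranged from 837.5 to 2268 around a median of 1686, MT1E from 166 to 377 around 297, and MT1X from 15.8 to 41.7 around 33.2. Across the 18 wells, on a log2 scale, MT2A and MT1E had a Pearson r of 0.94 (permutation p = 1e-05, the smallest that 100000 permutations can give; adjusted p = 6.67e-05 over 20 relations) and a Spearman rho of 0.83 (permutation p = 6e-05, adjusted p = 0.0006). MT2A and MT1X had an r of 0.89 (permutation p = 1e-05, adjusted 6.67e-05) and a rho of 0.74 (permutation p = 0.00065, adjusted 0.00288). MT1E and MT1X had an r of 0.96 (permutation p = 1e-05, adjusted 6.67e-05) and a rho of 0.84 (permutation p = 3e-05, adjusted 0.0006). Without the 2 wells farthest from the median on the x axis, r stayed at 0.88, 0.73 and 0.86.

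SLC30A1 ran against all 3 abundant metallothioneins by r among DMSO wells, but by rho only the relation with MT1X passed. SLC30A1 ranged from 31.6 to 66.6 CPM around a median of 38.3, and it correlated with MT1X at r = -0.81 (permutation p = 0.00143, adjusted 0.00572) and rho = -0.67 (permutation p = 0.00322, adjusted 0.0107), with r = -0.63 after the 2 farthest wells were left out. With MT2A the r was -0.75 (permutation p = 0.00118, adjusted 0.00572), the rho -0.46 (permutation p = 0.0552, adjusted 0.106) and the r without the 2 farthest wells -0.53. With MT1E the r was -0.75 (permutation p = 0.00348, adjusted 0.0116), the rho -0.47 (permutation p = 0.0496, adjusted 0.106) and the r without the 2 farthest wells -0.51. DMSO wells 10, 14 and 16 were the 3 lowest for MT2A, MT1E and MT1X alike and the 3 highest for SLC30A1. Well 10 had 460014 counts, but wells 14 and 16 had 18379466 and 56381685. The shallow well 10 set the DMSO minimum of MT2A, MT1E and MT1X and the DMSO maximum of SLC30A1 used below. Without well 10 the r of MT1X with SLC30A1 was -0.59 and that of MT2A with SLC30A1 -0.56. MTF1, from 29.8 to 45.2 CPM around 41.5, had no relation with MT2A that passed (r = 0.17, permutation p = 0.512, adjusted 0.565; rho = -0.14, permutation p = 0.572, adjusted 0.673; r = -0.48 without the 2 farthest wells). Its level had an r of 0.60 (permutation p = 0.00832, adjusted 0.0208) and a rho of 0.75 (permutation p = 0.00071, adjusted 0.00288) with mean fragment length. With the slope of each library on gene GC content it had an r of -0.64 (permutation p = 0.00457, adjusted 0.0131) and a rho of -0.74 (permutation p = 0.00072, adjusted 0.00288). Without the 2 farthest wells these r were 0.69 and -0.62.

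**Figure D2:**
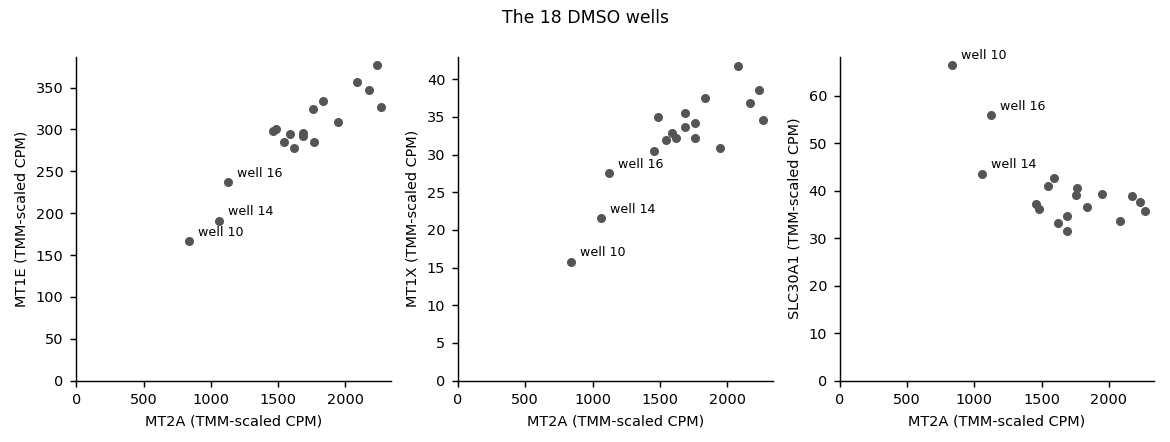
MT1E, MT1X and SLC30A1 (y axes) against MT2A (x axes), all in TMM-scaled CPM, in the 18 DMSO wells, 1 point a well. Wells 10, 14 and 16 had the 3 lowest MT2A levels (837.5, 1060 and 1125 CPM), the 3 lowest MT1E and MT1X levels, and the 3 highest SLC30A1 levels.

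Homoharringtonine raised the zinc exporter and its regulator while MT2A went down at the higher doses. SLC30A1 stood at 193, 172 and 153 CPM in the wells at 100 nM, at 195, 201 and 283 at 1000 nM, and at 224, 192 and 262 at 10000 nM, against at most 66.6 in DMSO. All 9 treated wells lay above all 18 DMSO wells. Its log2 fold change was 2.14 ± 0.12 (SE; adjusted p = 1.1e-13), 2.51 ± 0.13 (adjusted p = 1.2e-14) and 2.49 ± 0.12 (adjusted p = 4.0e-15), or 4.42-, 5.71- and 5.62-fold, by edgeR's quasi-likelihood test with Benjamini-Hochberg adjustment over all genes tested, which gave every adjusted p in the text. Calls needed an adjusted p under 0.05 together with a log2 change past 1 in either direction. At each dose 2 of the 6 members tested were called, both higher (SLC30A1 and MT1G), where 34.9%, 42.4% and 47% of all genes tested were called (18848, 19190 and 19329 genes) and 15.6%, 21.5% and 23.6% were called higher. MT1F and MT1M had too few counts to be tested in any comparison.

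MTF1 rose at all 3 doses of homoharringtonine but stayed under the fold limit. It stood at 65.3, 64.6 and 72.4 CPM at 100 nM, 64.0, 73.5 and 79.1 at 1000 nM, and 72.1, 70.9 and 77.0 at 10000 nM. All 9 wells were above the highest DMSO well, and the changes were 1.71-, 1.81- and 1.80-fold (log2 0.77 ± 0.08, 0.85 ± 0.08 and 0.85 ± 0.09; adjusted p = 1.5e-08, 3.4e-09 and 4.0e-09). GC slopes of the libraries at 10000 nM ran from -0.52 to -0.42 log2 units per 10 points of GC, below the DMSO range of -0.33 to 0.28. With the GC slope as a covariate the MTF1 change was 0.71, 0.73 and 0.61 and passed at all 3 doses (adjusted p = 1.0e-09, 8.0e-11 and 1.5e-06).

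The metallothioneins did not move as 1 group under homoharringtonine. MT1X stood at 44.5, 45.7 and 42.4 CPM at 100 nM, 57.9, 52.8 and 44.2 at 1000 nM, and 59.7, 58.9 and 45.9 at 10000 nM, all 9 above the highest DMSO well. It rose by a log2 of 0.44 ± 0.13 (adjusted p = 0.0069), 0.65 ± 0.14 (adjusted p = 0.00026) and 0.71 ± 0.13 (adjusted p = 3.6e-05), none past the fold limit. MT2A, the most abundant family member, went the other way: 1427, 1396 and 1539 CPM at 100 nM, 1383, 1022 and 852 at 1000 nM, and 922, 936 and 809 at 10000 nM. Most of these wells lay in the lower range of the DMSO wells, and 1 well, at 10000 nM, lay below all of them. The lowest DMSO well was well 10, with 460014 counts. Against the other DMSO wells, all wells at 10000 nM and those at 1022 and 852 CPM at 1000 nM lay below the range. The MT2A change was -0.19 ± 0.20 (adjusted p = 0.42), -0.63 ± 0.22 (adjusted p = 0.016) and -0.94 ± 0.21 (adjusted p = 0.00029), a level 1.92-fold lower at the top dose. With the GC slope as a covariate the MT2A change at 1000 nM no longer passed (-0.38, adjusted p = 0.085), and at 10000 nM it was -0.54 (adjusted p = 0.0496).

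MT1E, the second most abundant metallothionein, had values of 317, 303 and 296 CPM at 100 nM, 340, 291 and 260 at 1000 nM and 277, 274 and 233 at 10000 nM homoharringtonine. These wells overlapped the DMSO wells, with log2 changes of 0.06 ± 0.15, 0.01 ± 0.16 and -0.21 ± 0.15 (adjusted p = 0.75, 0.98 and 0.21). When libraries were scaled to the 13 mitochondrially encoded mRNAs in place of TMM, the median of all genes moved by -0.09, -0.07 and -0.27. SLC30A1 then remained called at all 3 doses (2.05, 2.41 and 2.22) and MTF1 passed the adjusted p (0.70, 0.77 and 0.59), but MT1X did not (0.31, 0.58 and 0.41; adjusted p = 0.38, 0.11 and 0.21), and MT2A at 10000 nM was called (-1.28, adjusted p = 0.0065). Over all genes at 10000 nM that scaling gave 3714 higher and 5715 lower calls in place of 4565 and 4523.

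**Figure D3:**
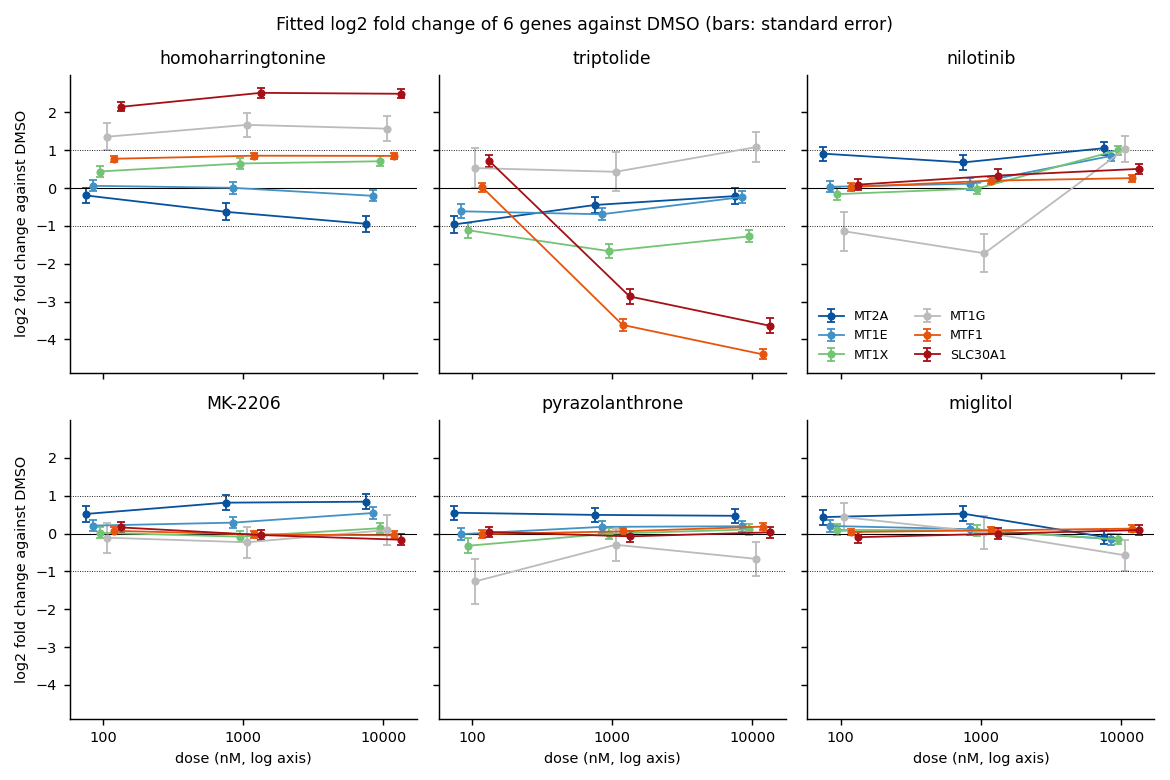
Fitted log2 fold change against DMSO (y axis) of the 6 tested genes at each dose in nM (log x axis), 1 panel a compound; bars are standard errors from edgeR and dotted lines mark the fold limit. SLC30A1 rose 4.42-fold or more at every homoharringtonine dose and fell with MTF1 at 1000 and 10000 nM triptolide, while MK-2206, pyrazolanthrone and miglitol kept all 6 genes uncalled.

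Triptolide took down MTF1 and SLC30A1 between 100 and 1000 nM, and left the abundant metallothionein mRNAs much less changed relative to other RNA. MTF1 stood at 38.1, 48.2 and 41.0 CPM at 100 nM, within or just above the DMSO range, then at 4.50, 2.44 and 3.06 at 1000 nM and 2.10, 1.74 and 2.02 at 10000 nM. At 100 nM the well at 48.2 rested on 4 counts, in the shallowest library. The 6 wells at the higher doses lay far below the lowest DMSO well (29.8). The log2 fold changes were 0.01 ± 0.11 (adjusted p = 0.93), -3.62 ± 0.16 (adjusted p = 8.0e-16) and -4.40 ± 0.13 (adjusted p = 8.2e-19), which is 12.3-fold lower at 1000 nM and 21.0-fold lower at 10000 nM. The mean transcript length that RSEM assigned to MTF1 was 7102 bases in DMSO wells and 3057 at 10000 nM triptolide, so its remaining counts were assigned to shorter transcripts.

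SLC30A1 was above DMSO at the low dose of triptolide and below it at the others. It stood at 53.2, 60.2 and 75.5 CPM at 100 nM, 5.02, 4.07 and 6.80 at 1000 nM, and 3.64, 3.67 and 2.45 at 10000 nM. The well at 60.2 was the shallowest library, with 70767 counts in all. At 100 nM the wells overlapped the upper DMSO wells and the change was 0.71 ± 0.16 (adjusted p = 0.0006), 1.64-fold, while at 1000 and 10000 nM all 6 wells were below every DMSO well, with changes of -2.86 ± 0.20 (adjusted p = 4.0e-12) and -3.64 ± 0.20 (adjusted p = 3.9e-14), 7.28- and 12.5-fold lower. Under mitochondrial scaling the sign of the change at 100 nM reversed to -0.92, and that of MTF1 became -1.60.

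MT1X fell at every dose of triptolide. It stood at 18.6, 12.1 and 11.4 CPM at 100 nM, 8.88, 10.6 and 11.6 at 1000 nM, and 14.8, 13.3 and 13.9 at 10000 nM, and 8 of these 9 wells were below the lowest DMSO well (15.8). The well at 12.1 was the shallowest library, with 81 counts over the whole metallothionein family, so its MT1X value rested on very few reads. Its changes were -1.12 ± 0.20 (adjusted p = 5.3e-05), -1.67 ± 0.17 (adjusted p = 6.9e-09) and -1.28 ± 0.16 (adjusted p = 8.9e-08), 2.17-, 3.17- and 2.43-fold lower. The call at 100 nM rested on replicate 3, without which the change was -0.82 (adjusted p = 0.0097).

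MT2A and MT1E passed the test at 100 nM triptolide, both lower, and neither passed at the top dose. MT2A stood at 932, 807 and 799 CPM at 100 nM, of which 2 wells were below all DMSO wells, then at 1215, 1256 and 1235 at 1000 nM and 1432, 1506 and 1540 at 10000 nM, inside the DMSO range. Its changes were -0.96 ± 0.22 (adjusted p = 0.00074), -0.45 ± 0.21 (adjusted p = 0.058) and -0.21 ± 0.20 (adjusted p = 0.35), and without replicate 1 at 100 nM it was called (-1.01, adjusted p = 0.0054). At 100 nM it was also called with the GC slope (-1.12) or fragment length (-1.08) as a covariate, by library size alone (-1.20) and with no filter (-1.03). The same held with a replicate block (-1.41) and under mitochondrial scaling (-2.51). Without replicate 3 it was not called. MT1E stood at 236, 157 and 158 CPM, then 170, 171 and 210, then 256, 262 and 257, and 2 of its wells at 100 nM were below all DMSO wells, with changes of -0.62 ± 0.19 (adjusted p = 0.0069), -0.69 ± 0.16 (adjusted p = 0.00061) and -0.24 ± 0.15 (adjusted p = 0.16). Of the 6 members tested, 1, 3 and 4 were called at 100, 1000 and 10000 nM, and 32.4%, 44.2% and 46.4% of all genes tested were called. All calls were lower except MT1G at 10000 nM, and 20.9%, 30.4% and 30.2% of all genes were called lower (11.4%, 13.9% and 16.2% higher).

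These values are relative to the bulk of the mRNA, and the make-up of the libraries differed in triptolide wells. The 13 mitochondrially encoded mRNAs, transcribed by a separate polymerase, took 0.243% of counts in DMSO wells (0.138% to 0.367%, so this reference varied between wells). At 100, 1000 and 10000 nM they took 0.563%, 0.935% and 1.09%. Scaled to them, the median log2 change of all genes moved by -1.65, -2.47 and -2.75, and the calls over all genes went from 2112 higher and 3876 lower to 140 and 13780 at 100 nM, from 2581 and 5642 to 7 and 17391 at 1000 nM, and from 3005 and 5602 to 8 and 18041 at 10000 nM. At 10000 nM the change of MT2A became -3.05 and that of MT1E -3.06, close to that median shift, while MT1X became -4.09, SLC30A1 -6.41 and MTF1 -7.15. MT1X, SLC30A1 and MTF1 at 1000 and 10000 nM were thus lower under both scalings, but MT1G, called higher at 10000 nM under TMM, was at -1.70 under mitochondrial scaling.

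**Figure D4:**
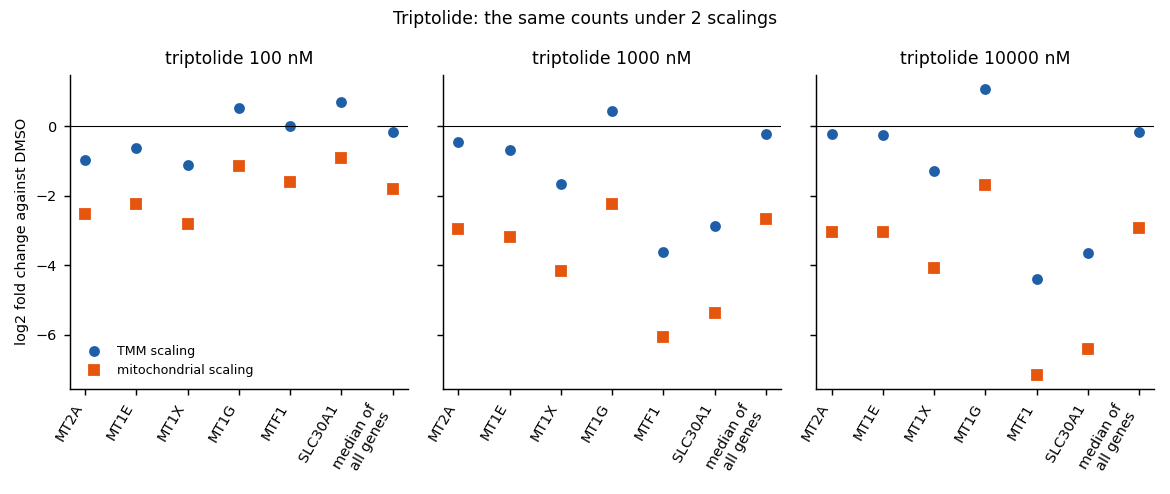
Log2 fold change against DMSO (y axis) of the 6 tested genes and the median of all genes at 3 triptolide doses, from the same counts scaled by TMM (circles) or by the 13 mitochondrially encoded mRNAs (squares). Mitochondrial scaling shifted the median of all genes by -1.65 to -2.75, and MTF1 and SLC30A1 at 1000 and 10000 nM stayed the lowest of the genes under both.

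Set directly against homoharringtonine at the same dose, triptolide wells had less SLC30A1, MTF1 and MT1X. SLC30A1 differed by a log2 of -1.37 ± 0.20 (adjusted p = 1.2e-05) at 100 nM, -5.40 ± 0.29 (adjusted p = 2.9e-06) at 1000 nM and -6.04 ± 0.16 (adjusted p = 8.1e-11) at 10000 nM. MTF1 differed by -0.69 ± 0.18 (adjusted p = 0.0034), -4.47 ± 0.29 (adjusted p = 5.0e-06) and -5.16 ± 0.11 (adjusted p = 1.8e-11). MT1X differed by -1.47 ± 0.23, -2.32 ± 0.23 and -1.90 ± 0.12 (adjusted p = 2.8e-05, 3.8e-05 and 6.4e-08). The wells of the 2 compounds did not overlap for any of these 3 genes at any dose, although triptolide replicate 2 at 100 nM had only 70767 counts. Of the 6 members tested 2, 3 and 3 were called, all lower in triptolide, where 47.9%, 58.6% and 68.1% of all genes tested were called and 27.4%, 35.9% and 37.9% were called lower.

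MT2A switched order between the 2 compounds. It was lower in triptolide than in homoharringtonine at 100 nM (-0.71 ± 0.18, adjusted p = 0.0022), not told apart at 1000 nM (0.17 ± 0.18, adjusted p = 0.42) and higher at 10000 nM (0.82 ± 0.08, adjusted p = 1.6e-06), the last turning to -1.77 under mitochondrial scaling. MT1E differed by -0.60 ± 0.19 (adjusted p = 0.011), -0.70 ± 0.17 (adjusted p = 0.0064) and 0.05 ± 0.08 (adjusted p = 0.56).

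Nilotinib at 10000 nM had the highest group means of MT2A, MT1E and MT1X in the series. MT2A stood at 2625, 3561 and 3292 CPM at 100 nM, 2526, 3475 and 2044 at 1000 nM, and 3436, 3660 and 3291 at 10000 nM. GC slopes of these libraries were -0.14, 0.48 and 0.29, then -0.30, 0.29 and -0.22, then -0.24, -0.13 and -0.05. All 3 wells at 100 and at 10000 nM were above the highest DMSO well (2268), and the changes were 0.91 ± 0.19 (adjusted p = 0.003), 0.68 ± 0.20 (adjusted p = 0.066) and 1.05 ± 0.18 (adjusted p = 0.00016), the first 1.88-fold and the last 2.07-fold. At 10000 nM all 3 wells of MT1E and of MT1X also lay above every DMSO well. MT1E stood there at 512, 534 and 540 CPM (0.85 ± 0.13, adjusted p = 8.1e-05, 1.80-fold) and MT1X at 60.5, 65.1 and 70.8 CPM (0.999 ± 0.12, adjusted p = 2.9e-06, just short of the fold limit).

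SLC30A1 rose less at 10000 nM nilotinib, with 61.4, 56.7 and 48.9 CPM against a DMSO maximum of 66.6 (0.50 ± 0.14, adjusted p = 0.013), and MTF1 did not pass (0.26 ± 0.09, adjusted p = 0.058). Of the 6 members tested, 0, 0 and 2 (MT2A and MT1G) were called at 100, 1000 and 10000 nM, where 1.48%, 1.13% and 3.12% of all genes tested were called (2.41% higher at 10000 nM). At 100 nM MT2A was called without replicate 1 (1.07, adjusted p = 0.0020), as it was under mitochondrial scaling (1.36, adjusted p = 0.020). At 10000 nM the mitochondrial share of counts averaged 0.372%, against 0.138% to 0.367% over single DMSO wells. Scaling to the mitochondrial mRNAs moved the median of all genes by -0.69 and left 171 higher and 3186 lower calls in place of 448 and 132. It brought MT2A to 0.30, MT1X to 0.27 and MT1E to 0.11, none passing. SLC30A1 then turned to -0.18.

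MK-2206 also gave high MT2A levels, short of the fold limit. MT2A stood at 2476, 2814 and 1968 CPM at 100 nM, 3191, 2563 and 3020 at 1000 nM, and 3921, 2527 and 2601 at 10000 nM, where 2, 3 and 3 wells were above all DMSO wells. The changes were 0.52 ± 0.20 (adjusted p = 0.50), 0.82 ± 0.19 (adjusted p = 0.026) and 0.84 ± 0.19 (adjusted p = 0.011). GC slopes of these libraries were -0.31, 0.25 and -0.23, then 0.29, -0.22 and 0.35, then 0.24, -0.17 and 0.11. Among DMSO wells MT2A had an r of 0.37 with the GC slope (permutation p = 0.137, adjusted 0.248), or 0.50 without the shallow well. The rho was 0.46 (permutation p = 0.0556, adjusted 0.106), so neither passed. The count of called members did not move with the GC slope as a covariate. MT1E at 10000 nM stood at 544, 361 and 391 CPM (0.54 ± 0.15, adjusted p = 0.047), all but 1 of the wells above the DMSO maximum of 377. Under mitochondrial scaling neither gene passed: MT2A was at 0.97 and 0.57 at 1000 and 10000 nM (adjusted p = 0.61 and 0.43) and MT1E at 0.28 (adjusted p = 0.64), with the median of all genes moved by 0.16 and -0.26. The mitochondrial share averaged 0.207% and 0.280% there, against 0.138% to 0.367% over single DMSO wells. MTF1, SLC30A1 and MT1X did not pass at any dose, with log2 changes between -0.16 and 0.16. No member was called, where 0.0054%, 0.286% and 0.711% of all genes tested were called.

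Pyrazolanthrone and miglitol called no member at any dose. Pyrazolanthrone wells had MT2A at 2470, 2533 and 2192 CPM at 100 nM, 2118, 2434 and 2480 at 1000 nM and 2198, 2498 and 2431 at 10000 nM, toward or above the top of the DMSO range, with changes of 0.55 ± 0.19, 0.49 ± 0.19 and 0.47 ± 0.19 (adjusted p = 0.087, 0.83 and 0.13). MT1X varied between the wells at 100 nM, at 40.2, 21.7 and 15.1 CPM, and without replicate 1 the low-count gene MT1G was called there (-2.71, adjusted p = 0.049). The share of all genes called was 0.923%, 0% and 1.16%. Miglitol wells had MT2A at 1999, 2515 and 2252 CPM, then 2277, 2854 and 2123, then 1789, 1664 and 1397, with changes of 0.43 ± 0.20, 0.52 ± 0.19 and -0.09 ± 0.20 (adjusted p = 0.75, 0.38 and 0.78). There 0% of genes were called at each dose by edgeR. At an unadjusted p under 0.05, edgeR gave 944, 1563 and 4195 genes for the 3 miglitol doses and 1033 for 1000 nM pyrazolanthrone, and DESeq2 called 1, 9 and 3 genes and 4 genes. Over the 11 comparisons with DMSO in which edgeR called no member, 15 of 66 pairs of a member and a comparison had an unadjusted p under 0.05, and DESeq2 called 0 of them.

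Slopes on log10 dose over the 9 wells of a compound were called at an adjusted p under 0.05. Under triptolide MTF1 fell by 2.26 ± 0.25 and SLC30A1 by 2.21 ± 0.24 log2 units per 10-fold dose (adjusted p = 8.8e-05 for both), and MT2A rose by 0.30 ± 0.07 (adjusted p = 0.0067), where 24.1% of 15720 genes were called (17.7% lower). The MT2A slope turned to -0.25 under mitochondrial scaling and did not pass without replicate 3 (0.25, adjusted p = 0.13). Under homoharringtonine MT2A fell by 0.39 ± 0.08 (adjusted p = 0.0023), where 44.3% of 17862 genes were called (23.1% lower), but without replicate 2 the adjusted p was 0.052. Under nilotinib MT1X rose by 0.57 ± 0.11 (adjusted p = 0.028) and MT1E by 0.40 ± 0.08 (adjusted p = 0.039), where 2.86% of 17371 genes were called (1.94% higher), and both calls were lost without replicate 2 (adjusted p = 0.25 and 0.28) or replicate 3 (adjusted p = 0.50 for both). Miglitol called MT1E (-0.17 ± 0.05, adjusted p = 0.045), where 16.5% of 17471 genes were called (3.39% lower), and lost it without any 1 of the replicates 1, 2 and 3 (adjusted p = 0.16, 0.078 and 0.22). By miglitol dose the mean GC slope was 0.13, 0.12 and -0.25 and the mitochondrial share 0.172%, 0.175% and 0.325%. Mean GC slopes also fell with dose under nilotinib (0.21, -0.08 and -0.14) and pyrazolanthrone (0.18, 0.11 and -0.17). Dose and library make-up cannot be told apart in such slopes. MK-2206 and pyrazolanthrone called no member at background shares of 0.0286% and 19.4%, although MT1X under pyrazolanthrone passed without replicate 1 (0.47, adjusted p = 0.019).

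Ratios between metallothioneins within a well do not depend on the scaling, but they do depend on how RSEM divides reads. They were not corrected for the GC slope of the library. Mean GC slopes by dose were -0.19, -0.25 and -0.45 under homoharringtonine and 0.21, -0.08 and -0.14 under nilotinib. Under triptolide they were 0.25, 0.15 and 0.14. Whether GC content contributed to the ratios was not tested. DMSO wells had 1.97 ± 0.24 MT1X counts per 100 MT2A counts (SD, n = 18; 1.53 to 2.45). Homoharringtonine wells had 3.12, 3.27 and 2.75 at 100 nM, 4.18, 5.16 and 5.19 at 1000 nM, and 6.48, 6.29 and 5.67 at 10000 nM. All 9 lay above every DMSO well, and the group means of 3.05, 4.85 and 6.14 were higher at each higher dose. Triptolide wells had 2.00, 1.49 and 1.42, then 0.731, 0.842 and 0.941, then 1.03, 0.884 and 0.902, so that all 6 wells at the higher doses lay below every DMSO well. The ratio of 1.49 came from the shallowest library, with 81 counts over the whole family. Nilotinib had group means of 0.97, 1.27 and 1.90, and MK-2206 had 1.42, 1.06 and 1.23. Pyrazolanthrone had group means of 1.06, 1.40 and 1.53, and miglitol 1.60, 1.46 and 1.90. All 3 nilotinib wells at 100 nM (0.698 to 1.42) and at 1000 nM (0.966 to 1.46), and all 3 MK-2206 wells at 1000 nM (0.953 to 1.19) and at 10000 nM (1.08 to 1.35), also lay below every DMSO well.

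MT1E was the other partner in such ratios. MT1X per 100 MT1E counts was 10.99 ± 0.70 in DMSO wells (SD, n = 18), with means of 14.5, 17.4 and 20.9 under homoharringtonine and 7.59, 5.64 and 5.42 under triptolide by dose. MT1E per 100 MT2A counts was 17.9 ± 1.76 in DMSO wells, with means of 21.0, 27.8 and 29.4 under homoharringtonine, 21.5, 14.9 and 17.3 under triptolide, and 9.81, 12.3 and 15.3 under nilotinib. The means were 14.4, 12.3 and 14.4 under MK-2206, 11.8, 14.2 and 14.6 under pyrazolanthrone, and 15.3, 13.4 and 17.1 under miglitol. As a share of all counts the whole family went from 0.213% in DMSO to means of 0.165%, 0.138% and 0.122% under homoharringtonine, 0.0983%, 0.111% and 0.126% under triptolide, 0.350%, 0.306% and 0.433% under nilotinib, and 0.284%, 0.343% and 0.374% under MK-2206. Pyrazolanthrone had means of 0.283%, 0.279% and 0.284%, and miglitol 0.270%, 0.280% and 0.200%.

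**Figure D5:**
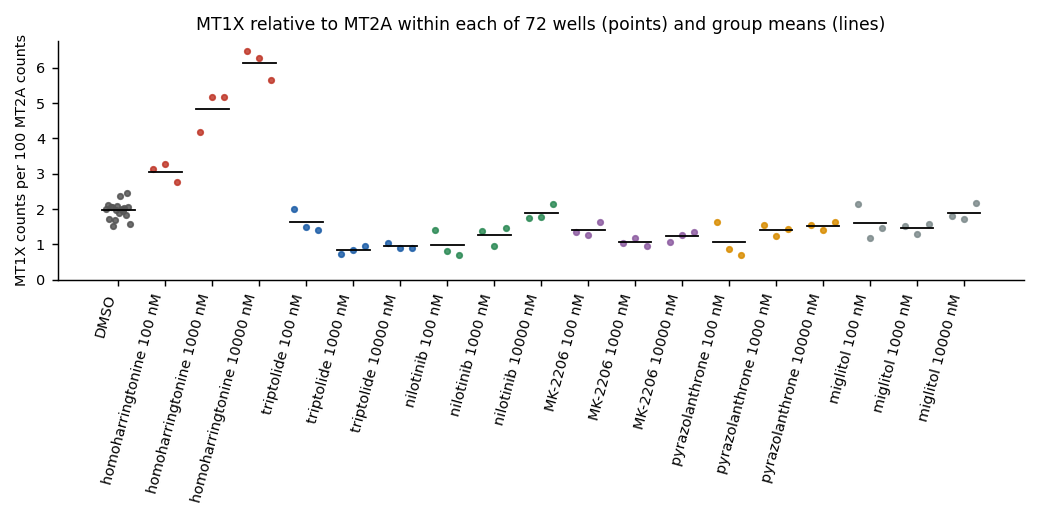
MT1X counts per 100 MT2A counts (y axis) in each of the 72 wells by group, with points as wells and lines as group means. The ratios were not corrected for the GC slope. The 9 homoharringtonine wells (2.75 to 6.48) lay above every DMSO well (1.53 to 2.45), and all wells of triptolide at 1000 and 10000 nM, nilotinib at 100 and 1000 nM and MK-2206 at 1000 and 10000 nM lay below every DMSO well.

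The scarce metallothioneins rested on few reads, and MT1G reached at most 0.720 CPM in DMSO wells. MT1G had 33, 13 and 22.04 expected counts at 100 nM homoharringtonine, 29.08, 44.02 and 37.02 at 1000 nM, and 50.05, 26.08 and 29.7 at 10000 nM, with log2 changes of 1.35 ± 0.35 (adjusted p = 0.0018), 1.67 ± 0.32 (adjusted p = 7.9e-05) and 1.57 ± 0.32 (adjusted p = 0.00013). In CPM, MT1G lay above the highest DMSO well in 1 of 3 wells at each of these doses and within the DMSO range in the others. At 10000 nM triptolide it had 18.05, 18.05 and 6.02 counts (1.08 ± 0.39, adjusted p = 0.016), a call lost without replicate 1 (0.82, adjusted p = 0.14) or replicate 2 (0.89, adjusted p = 0.11). Under nilotinib MT1G had 2, 7.01 and 2 counts at 100 nM (-1.14 ± 0.52, adjusted p = 0.17) and 4, 4 and 2 at 1000 nM (-1.72 ± 0.51, adjusted p = 0.055), the latter called lower with the GC slope as a covariate (-1.56, adjusted p = 0.023), with fragment length as a covariate (-1.72, adjusted p = 0.043), by library size alone (-1.79, adjusted p = 0.042) and in 1 fit of all 72 wells (-1.71, adjusted p = 0.042). At 10000 nM nilotinib it had 20.02, 27.07 and 16.03 counts (1.02 ± 0.35, adjusted p = 0.049), a call lost without replicate 1, 2 or 3 (adjusted p = 0.18, 0.32 and 0.076). MT1F had 7 counts in 6 wells and MT1M 9 counts in 8 wells over all 72 wells.

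Among family members outside the 8 genes, MT1B had 88 of its 89 counts in the 9 homoharringtonine wells, with 4 to 16 in each of them, and 0 counts in the 18 DMSO wells. By dose these were 19, 31 and 38 counts, and MT1B was singled out after its values were seen. MT3, a metallothionein known from brain, was seen in the same way and had 75 of 110 counts in those 9 wells, 2 to 14 in each, against 0 to 4 in any other well. None of the 8 other metallothioneins listed passed the filter on low counts in any comparison with DMSO. MT1B passed it for the homoharringtonine slope, where it was not called (0.25 ± 0.18, adjusted p = 0.28).

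Other zinc transporters were called under the same pair of compounds. Of 7 zinc exporter genes of the SLC30A family tested besides SLC30A1, homoharringtonine called 1, 3 and 3 higher and 0 lower by dose, and triptolide called 2, 2 and 3 lower and 0 higher. By dose 15.6%, 21.5% and 23.6% of all genes were called higher under homoharringtonine (19.3%, 20.9% and 23.4% lower). Under triptolide 20.9%, 30.4% and 30.2% were called lower (11.4%, 13.9% and 16.2% higher). SLC30A7, which loads zinc into the Golgi, changed by 2.17 ± 0.18 at 10000 nM homoharringtonine (adjusted p = 8.8e-11) and by -1.45 ± 0.24 at 10000 nM triptolide (adjusted p = 8.1e-06). SLC30A2, a transporter of zinc into vesicles, changed by 2.03 ± 0.21 and -1.22 ± 0.34, the latter short of the fold limit without replicate 3 (-0.99), and SLC30A4 changed by -1.95 ± 0.29 under triptolide. The level of SLC30A2 was low, with means of 1.15 CPM in DMSO, 5.07 at 10000 nM homoharringtonine and 0.54 at 10000 nM triptolide. At 10000 nM the median log2 change over the exporters was 0.88 under homoharringtonine, 0.01 with the GC slope as a covariate, and -0.55 under triptolide. With the GC slope as a covariate homoharringtonine called 3 exporters higher at each dose and SLC30A4 lower at 1000 and 10000 nM. Under mitochondrial scaling triptolide called all 7 exporters lower at each dose.

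Of the 11 SLC39A importers tested at every dose, homoharringtonine at 10000 nM called 0 higher and 3 lower, SLC39A11 by -1.84 ± 0.10 among them, beside 23.4% of all genes lower. Triptolide at 10000 nM called 3 of the 11 higher (SLC39A1, SLC39A4 and SLC39A6) and 0 lower, beside 16.2% of all genes higher. Under mitochondrial scaling, which moved the median of all genes by -2.75, it called 0 higher and 11 lower. A further importer entered the test at 10000 nM of each compound through the treated wells alone. SLC39A5 averaged 0.0843 CPM in DMSO and 0.363 at 10000 nM homoharringtonine, and SLC39A12 averaged 0.0493 CPM in DMSO and 0.330 at 10000 nM triptolide, levels too near 0 to be read as a change.

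Of the other 3 listed MTF1 targets, GCLC, which makes the first step of glutathione synthesis, changed by 1.37 ± 0.13 at 10000 nM homoharringtonine and -3.89 ± 0.20 at 10000 nM triptolide. With the GC slope as a covariate the GCLC change under homoharringtonine was 0.89, short of the fold limit. SELENOW, a small selenoprotein, changed by -0.99 and 1.42 ± 0.14, the latter turning to -1.41 under mitochondrial scaling, and SLC39A10 was not called at these doses. Of 8 copper-handling genes tested, homoharringtonine called 2 higher at 10000 nM, among them the copper transporter SLC31A2 (1.84 ± 0.09), beside 23.6% of all genes called higher. Triptolide called 2 higher and 1 lower, beside 16.2% and 30.2% of all genes, and under mitochondrial scaling 0 higher and 8 lower. The copper chaperone ATOX1 stood at 1.58 ± 0.10, which turned to -1.23 under mitochondrial scaling, and SCO1, needed for cytochrome oxidase assembly, fell by 1.56 ± 0.11.

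Of the 8 listed genes of heavy metal stress, none was called higher against DMSO under either compound. Homoharringtonine called 3, 4 and 5 of them lower by dose and triptolide 5 at each dose, where 19.3%, 20.9% and 23.4% of all genes were lower under homoharringtonine and 20.9%, 30.4% and 30.2% under triptolide. The heat shock gene HSPA1B changed by -1.28 at 10000 nM homoharringtonine (-0.87, short of the fold limit, with the GC slope as a covariate) and -6.12 ± 0.21 at 10000 nM triptolide, HSPA1A by -2.17 and -4.87 ± 0.21, and the co-chaperone DNAJB1 by -5.84 ± 0.13 under triptolide. DNAJB1 averaged 222 CPM in DMSO and 260, 388 and 393 by dose under homoharringtonine, every well above the DMSO maximum of 247, but was not called against DMSO. By slope on log10 dose homoharringtonine called 1 of the 8 higher (DNAJB1) and 4 lower, beside 44.3% of all genes called (23.1% lower). Of the 5 glucocorticoid genes, homoharringtonine called 3, 2 and 1 higher by dose, beside 15.6%, 21.5% and 23.6% of all genes, with PER1 at 3.63 ± 0.10 at 10000 nM, and triptolide at 10000 nM called 4 lower, among them KLF9 (-5.00 ± 0.18), PER1 (-2.66 ± 0.18) and NR3C1, the receptor itself (-2.46 ± 0.28). Nilotinib called none of the genes on these lists apart from SLC30A2, lower at 1000 nM.

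MTF1 and SLC30A1 had the most similar profiles among the 10 pairs of MT2A, MT1E, MT1X, MTF1 and SLC30A1. Over the 19 group means, on log2 of CPM plus 1 and as a description of groups that share 1 cell line, their Pearson r was 0.90, against 0.77 for MT2A and MT1E, 0.73 for MT1E and MT1X, 0.79 for MT1X and MTF1, 0.75 for MT1X and SLC30A1, 0.27 for MT2A and MT1X, and -0.20 for MT2A and SLC30A1. Among 10765 protein-coding genes reaching 10 CPM in a group, the 5 most like SLC30A1 were BCL10 (r = 0.996), SPTY2D1 (0.994), FAM200A (0.992), SPRTN (0.990) and DCP1A (0.990). Those most like MTF1 were GSPT2 (0.998), ZNF217 (0.996), CDR2 (0.995), ACBD3 (0.994) and ETV3 (0.993). MT2A had less close neighbours, SIM2 (0.966), DENND2B (0.944), TGFBI (0.938), AFAP1 (0.937) and NNMT (0.934), and 2 of these 5 were among the 5 when single wells were correlated, against 5 for SLC30A1 and 4 for MTF1.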

How the data were processed

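RNA of U2OS wells from 24-well plates was made into stranded poly-A libraries and sequenced by the authors. Per the labels and the paper's methods, the authors used RSEM on GRCh38 and deposited for each well an expected count (estimated reads per gene) and TPM for 60371 genes. HTSeq and DESeq2 are also named in the submitters' processing notes, without a role or version. Symbols came from the GENCODE annotation (56104 identifiers matched).

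Expected counts were rounded and tested in R 4.3.3 with edgeR 4.0.16 (filterByExpr with a smallest count of 10, TMM, quasi-likelihood test), 1 fit for each of 18 compound and dose groups with the 18 DMSO wells, 1 for triptolide against homoharringtonine at each dose, and 1 slope on log10 dose a compound, with Benjamini-Hochberg adjustment over all genes tested. A standard error is the log2 change over the square root of its F statistic. DESeq2 1.42.0 was an alternative. Levels are TMM-scaled CPM, and tables were made in Python 3.11.15 with pandas 2.3.3. Depth ran from 70767 to 68296309 counts, and low-count genes have wide errors. Fragment length is the gap between a transcript's length and effective length over transcripts of 3000 bases or more. The GC slope regresses each library's log2 level, relative to the mean, on gene GC content. The fits were tested on simulated counts first.

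Every member was named, with at most 3 genes by largest change from each list at 10000 nM of triptolide or homoharringtonine, and the 5 genes most like MT2A, SLC30A1 and MTF1. The members and lists were chosen with earlier results of these data known. Among 207 pairs of wells within groups, 0 were identical. Alternatives were other scalings, no filter, DESeq2, covariates, left-out wells, a replicate block and 1 fit of all 72 wells. No file was left out, and 1 listed marker gene is not reported here.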

Additional observations from a re-analysis of the deposited data

How the results depend on the processing

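Over 27 comparisons and 306 pairs of a comparison and an alternative, 260 kept the count of called members within 1.5 times the reported one. The labels do not say whether equal replicate numbers pair wells. Deviations of wells with the same number correlated at a mean of 0.021 over 477 pairs, against -0.013 over 955 pairs with different numbers. Single pairs with the same number ran from -0.96 to 0.96, so these means cannot decide whether wells were paired. With a replicate block on wells 1 to 3, homoharringtonine at 100 nM called 1 member (reported 2), nilotinib at 10000 nM 0 (2), triptolide at 100 nM 3 (1) and the miglitol slope 0 (1). With the GC slope as a covariate nilotinib called 1 at 100 and 1 at 1000 nM (0 and 0), triptolide at 100 nM 2, the homoharringtonine slope 2 (1) and the miglitol slope 0. With fragment length as a covariate nilotinib at 1000 nM called 1, triptolide at 100 nM 2 and the miglitol slope 0. Both covariates in slopes were chosen after seeing the data. By library size alone nilotinib called 1 at 1000 and 1 at 10000 nM, triptolide at 100 nM 2 and the homoharringtonine slope 3. In 1 fit of all wells nilotinib called 1 at 1000 and 1 at 10000 nM. DESeq2 called 1 for nilotinib at 10000 nM and 2 for the miglitol slope, and no filter gave nilotinib at 10000 nM 1, triptolide at 100 nM 2 and the miglitol slope 0.

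Scaled to mitochondrial mRNAs, nilotinib called 1 at 100 and 0 at 10000 nM, triptolide 4 at 100 and 6 at 1000 nM (1 and 3), triptolide against homoharringtonine 6, 6 and 6 (2, 3 and 3), and the slopes 0 for homoharringtonine, 6 for miglitol and 1 for nilotinib (1, 1 and 2). Leaving out 1 treated well gave 0 to 1 for nilotinib at 100 nM, 1 to 2 at 10000 nM, 0 to 1 for pyrazolanthrone at 100 nM, 0 to 2 for triptolide at 100 nM, and for slopes 0 to 1 for homoharringtonine, 0 to 0 for miglitol, 0 to 2 for nilotinib and 0 to 1 for pyrazolanthrone. Signs reversed under mitochondrial scaling for the slopes of MT1E under nilotinib (-0.17) and triptolide (-0.38), MT2A under triptolide (-0.25), MTF1 under miglitol (-0.38) and nilotinib (-0.44) and SLC30A1 under miglitol (-0.33). They also reversed for the changes under triptolide of ATOX1 (-1.23), SELENOW (-1.41) and SLC39A11 (-2.53) at 10000 nM, MT1G at 1000 and 10000 nM (-2.24 and -1.70), and MTF1 (-1.60) and SLC30A1 (-0.92) at 100 nM. The same held for SLC30A1 at 10000 nM nilotinib (-0.18) and, for triptolide against homoharringtonine, MT1E at 10000 nM (-2.54) and MT2A at 1000 and 10000 nM (-2.27 and -1.77). By library size alone MT1E between these compounds at 10000 nM (-0.53), MTF1 at 100 nM triptolide (-0.31) and SLC39A11 at 10000 nM triptolide (-0.27) reversed. The cause of these changes was not tested. MT1F and MT1M had no counts in most wells, and MT1G had counts in 68 wells but at most 50.05 in any, so its values rest on few reads.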
